A study of Homo sapiens with 18 samples.

Results

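The Ly1 line was compared after 24 h and after 12 h with SGC-GAK-1, to ask what moved between the 2 treated times. Ly1 is a diffuse large B-cell lymphoma (DLBCL) line that the labels class as GCB, the germinal centre B-cell type. The members are the 3 libraries titled with Ly1, 1 µM SGC-GAK-1 and 24 h and the 3 titled with 12 h, chosen by title alone, which makes 6 of the 18 libraries of the series. All 6 came from cells in Iscove's medium with serum, antibiotics and plasmocin, and all carried the compound at the same dose, so neither time is an untreated state. The 3 Ly1 libraries given the vehicle DMSO, for which the labels name no time, were not part of the contrast. They entered the filter on low counts, the scaling and the estimate of the spread. Libraries of U2932, a second DLBCL line grown in RPMI medium and treated in the same way, were used for a single comparison between lines. Replicates carry the numbers 1, 2 and 3 in every group. Nothing in the labels says that they are separate cultures, so the p-values measure the spread between these libraries, which may be technical. A single line and a single dose limit the comparison as a model of the disease.

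SGC-GAK-1 is a chemical probe that blocks the ATP site of cyclin G-associated kinase (GAK). GAK is the widely expressed relative of auxilin. With the chaperone HSC70, the product of HSPA8, it strips the clathrin coat from vesicles after endocytosis, and in dividing cells it is known for roles at the centrosome and in lining up chromosomes on the spindle. Loss of GAK is known to delay mitosis, when cyclin B and the other late cell cycle genes are at their highest.

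The libraries measured mRNA by sequencing and held between 22549853 gene counts (DMSO, replicate 3) and 29386802 (DMSO, replicate 1) in the 9 Ly1 libraries. Levels are given in CPM, counts relative to the library total after scaling by trimmed mean of M values (TMM), and differences as log2 fold changes of 24 h over 12 h with the standard error (SE) of the fit. B cell genes were abundant in all 6 libraries, with CD79A between 824 and 1199 CPM before scaling and PAX5 between 411 and 564. Of the germinal centre markers, BCL6 and MME were each above 528 CPM and MYBL1 above 46.1, whereas LMO2 was at most 0.0805. The summed T and NK cell markers ranged from 34.9 to 38.1 CPM at 12 h and from 40.8 to 52.2 at 24 h, nearly all of it TRAC, with CD3D, CD3E, CD2 and NKG7 at 0 or at most 0.0805. Myeloid markers summed to at most 1.28 CPM. Replicate 3 stood apart. Its DMSO library differed from the other DMSO libraries by a median of 0.215 and 0.204 on the log2 scale per gene, against 0.0667 between those of replicates 1 and 2.

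No gene passed the test between 24 h and 12 h when all 3 replicates were used. With edgeR's quasi-likelihood test, 0 of 14005 genes (0%) had an adjusted p under 0.05, and the smallest adjusted p was 0.218. At an unadjusted p under 0.05 there were 1446 genes (10.3%), of which 784 were higher at 24 h (5.6%) and 662 were lower (4.73%). DESeq2 called 5 genes and limma voom called 0. For 1213 genes (8.66%) all 3 libraries at 24 h lay above all 3 at 12 h, and for 1128 (8.05%) all 3 lay below. Compared by replicate number, 2763 genes (19.7%) were higher at 24 h in each of the 3 and 2515 (18%) were lower in each. In sign, replicate 3 matched the mean of replicates 1 and 2 in 47.9% of the 14005 genes. These counts alone therefore do not show a change shared by all 3.

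The change differed by replicate number. In replicates 1 and 2 a broad change was shared between them, whereas replicate 3 hardly moved. Over the 9434 genes that averaged 5 CPM or more in the 6 libraries, the median size of the change from 12 h to 24 h was 0.221 log2 in replicate 1, 0.221 in replicate 2 and 0.0867 in replicate 3. The value in replicate 3 was close to the median difference of 0.0818 between the 12 h libraries of replicates 1 and 2, which had the same treatment. In replicate 1, 19 of these genes were higher by more than 1 log2 unit and 23 were lower. The counts were 18 and 32 in replicate 2, and 1 and 0 in replicate 3. As a description across genes, which are not independent replicates, the changes in replicates 1 and 2 had a Pearson r of 0.887, while that of replicate 3 had an r of -0.014 with replicate 1 and -0.022 with replicate 2. The 24 h library of replicate 3 lay nearer to the 12 h library of its own number (median difference 0.0866) than to the 24 h libraries of replicates 1 (0.295) and 2 (0.247).

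**Figure D1:**
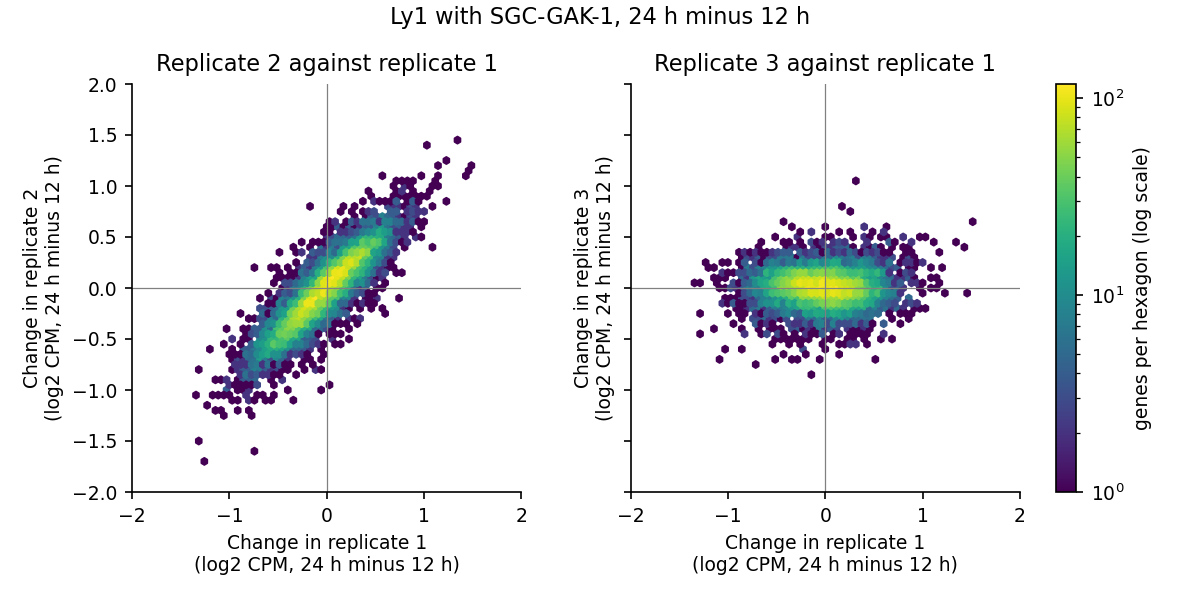
Change from 12 h to 24 h per gene in log2 CPM, replicate 2 (left) and replicate 3 (right) on the vertical axis against replicate 1 on the horizontal axis, for the 9434 genes that averaged 5 CPM or more; colour gives the genes per hexagon on a log scale. The left cloud follows the diagonal (r = 0.887), and the right cloud lies flat along 0 (r = -0.014).

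Leaving out 1 replicate number at a time moved the count of calls from 0 to 5841. Without replicate 3, edgeR called 5841 of 14024 genes (41.7%), of which 2793 rose (19.9%) and 3048 fell (21.7%), on 2 libraries per group. Without replicate 1 it called 0 of 14155, with 167 at an unadjusted p under 0.05, and without replicate 2 it called 0 of 14073, with 119. The genes called without replicate 3 were then read in replicate 3, which that fit had not used. Of the 2780 that rose and were measured there, 1401 (50.4%) were higher at 24 h in replicate 3, with a median change of 0.0013 against 0.37 in replicates 1 and 2. Of the 3042 that fell, 1230 (40.4%) were lower in replicate 3, with a median of 0.031 against -0.38. Over all 14005 genes, 47.9% had the same sign in replicate 3 as in the mean of replicates 1 and 2. Most genes below are therefore given by library or by replicate, and counts over gene lists also from the fit without replicate 3. That fit is shown because replicate 3 differed, and the fits without replicate 1 or 2 called 0 genes. Its adjusted p values thus describe agreement between replicates 1 and 2, and none is a test over all 3 replicates.

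Short and long transcripts parted in replicates 1 and 2. Genes were set in 10 equal classes by transcript length, and the class with the shortest (median 591 nt) had a median change of 0.08 log2 in replicate 1 and 0.10 in replicate 2, and the class with the longest (median 5848 nt) had -0.27 and -0.30. In replicate 3 the same ends stood at -0.0077 and 0.052. As a description over 9427 genes, r between the change and the log2 of transcript length was -0.33, -0.37 and 0.13 in replicates 1, 2 and 3. Mitochondrial mRNAs moved with it, taking 5.37%, 4.20% and 4.79% of counts at 12 h and 8.17%, 6.87% and 4.39% at 24 h in replicates 1, 2 and 3. An offset for transcript length, chosen after seeing the data, left 0 calls over all 3 replicates and 5243 without replicate 3 (2540 higher and 2703 lower). Values with that offset are given where they move a result, and no other part of these differences in the results was tested.

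**Figure D2:**
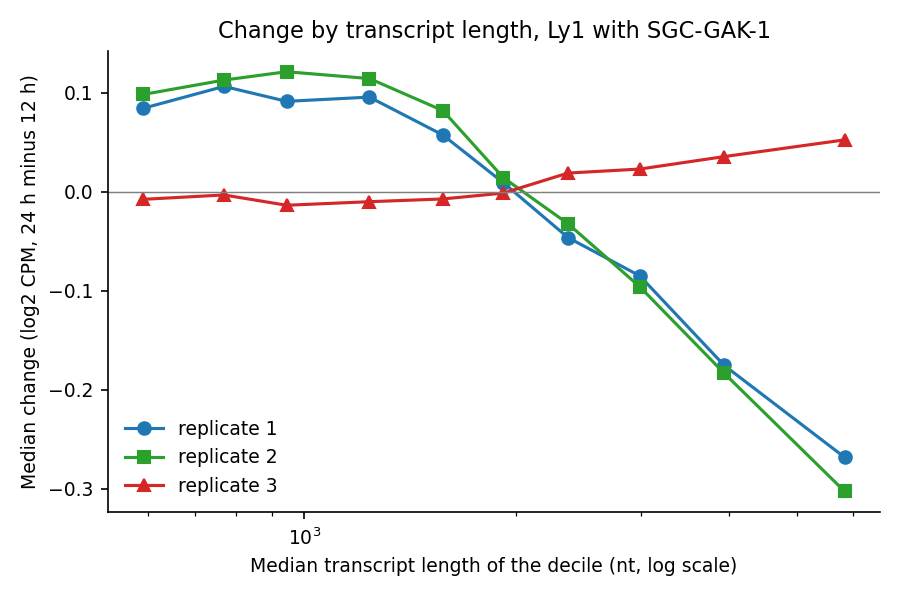
Median change from 12 h to 24 h (log2 CPM, vertical axis) in each of 10 classes of genes ordered by transcript length (median length in nt, horizontal log axis), with a line per replicate number. Replicates 1 and 2 descend from 0.08 and 0.10 to -0.27 and -0.30, and replicate 3 goes from -0.0077 to 0.052.

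Among the 2341 genes (16.7%) whose 24 h and 12 h libraries did not overlap, some moved by a like amount in all 3 replicates. CPNE1, which encodes a calcium-dependent membrane-binding copine, had the smallest p among the higher protein-coding genes. It was measured at 40.1, 37.3 and 41.5 CPM at 12 h and at 66.9, 64.9 and 56.5 CPM at 24 h in replicates 1, 2 and 3. Every library at 24 h was above every library at 12 h, also in replicate 3. Its log2 fold change was 0.66 ± 0.10 (SE, n = 3 per group) with an adjusted p of 0.218 in edgeR, and DESeq2 called it with an adjusted p of 1.27e-05. The DMSO libraries held it at 54.7, 52.7 and 59.5 CPM, so the 12 h libraries were the low ones.

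On the lower side, SEPTIN8, which encodes a cytoskeletal septin, stood at 12.1, 12.4 and 9.61 CPM at 12 h and at 5.89, 6.27 and 6.20 at 24 h. The groups did not overlap, and the 24 h libraries lay close together. The log2 fold change was -0.89 ± 0.18 with an adjusted p of 0.482, and 0.0254 in DESeq2. C10orf71, a gene described as a regulator of heart muscle, was at 7.80, 8.97 and 8.65 CPM and then at 5.35, 4.84 and 5.27, a change of -0.72 ± 0.14 that was called by DESeq2 alone (adjusted p of 0.0254 against 0.482 in edgeR). Under the alternatives in processing its change ranged from -0.75 to -0.48. LDLRAD4, an inhibitor of TGF-beta signalling, went from 85.2, 88.9 and 77.2 CPM to 57.1, 58.2 and 60.2, with -0.52 ± 0.11 (adjusted p 0.482, and 0.0378 in DESeq2). In both genes the 24 h libraries were all lower and replicate 3 moved in the same direction as the others. The remaining DESeq2 call, the long noncoding RNA AC076968.2, was at 46.7, 55.9 and 51.7 CPM and then 25.6, 28.1 and 34.1, with -0.81 ± 0.12 in edgeR (adjusted p 0.218). It was named after its value was seen.

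DERL3, an endoplasmic reticulum protein of the plasma cell and secretory programme that feeds misfolded proteins to degradation, was among the most even of the named genes. Its levels were 16.96, 16.46 and 16.12 CPM at 12 h and 12.1, 11.2 and 11.4 at 24 h, a change of -0.48, -0.55 and -0.49 by replicate. TMBIM1, a membrane protein of the BAX-inhibitor family, was likewise lower by -0.72, -0.80 and -0.72. Both had an adjusted p of 0.482 over all replicates and 0.000162 and 0.000271 without replicate 3. RDM1, a gene of recombination repair, was higher in all 3 pairs, at 2.98, 2.40 and 3.13 CPM and then 5.94, 6.07 and 5.66. CUTC, a copper-binding protein, rose without replicate 3 (adjusted p 0.000156), and its changes by replicate were 0.71, 0.44 and 0.41.

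For most genes at the top of the list by size, replicate 3 moved less. NLRP7, a sensor protein of the NOD-like family, was at 32.1, 28.1 and 60.0 CPM at 12 h and at 80.2, 77.04 and 81.4 at 24 h. Replicate 3 was high already at 12 h, as it was in DMSO (73.2 against 25.4 and 25.7), and all 3 ended at a like level. CD52, a small surface glycoprotein of lymphocytes, was at 295, 282 and 304 CPM and then 563, 529 and 375. IL2RG, the common gamma chain of cytokine receptors, was at 4.09, 4.45 and 4.23 CPM and then 11.2, 9.41 and 5.62. For both, the 24 h libraries were all higher, with replicate 3 the lowest of them. Their fold changes were 0.74 ± 0.17 and 1.03 ± 0.23 (adjusted p 0.482 each), and 0.92 ± 0.05 and 1.26 ± 0.14 without replicate 3 (adjusted p 2.21e-12 and 1.28e-07).

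BCL3, an atypical IkappaB protein that binds NF-kappaB, changed by 1.21, 1.24 and 0.20 log2 by replicate, and HMGN5, a nucleosome-binding protein, by 1.12, 1.104 and 0.10. NPIPB4 also ranked here, but it belongs to a family of near-identical copies, among which counts may have been split. Of the lower genes, PLK2, a polo-like kinase induced by stress and p53, changed by -1.69, -1.35 and -0.58. ILDR2, a membrane protein of the immunoglobulin family, changed by -1.26, -1.72 and -0.46, and CEMIP2, a cell surface hyaluronidase, by -1.17, -1.02 and -0.42. ITGB2, the beta chain of the leukocyte integrins, stood at 11.5, 12.8 and 6.56 CPM at 12 h and 6.48, 6.35 and 4.80 at 24 h. Without replicate 3 all of these passed the test, BCL3 and HMGN5 as higher and PLK2, ILDR2, CEMIP2 and ITGB2 as lower (adjusted p between 1.11e-08 and 1.16e-06).

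**Figure D3:**
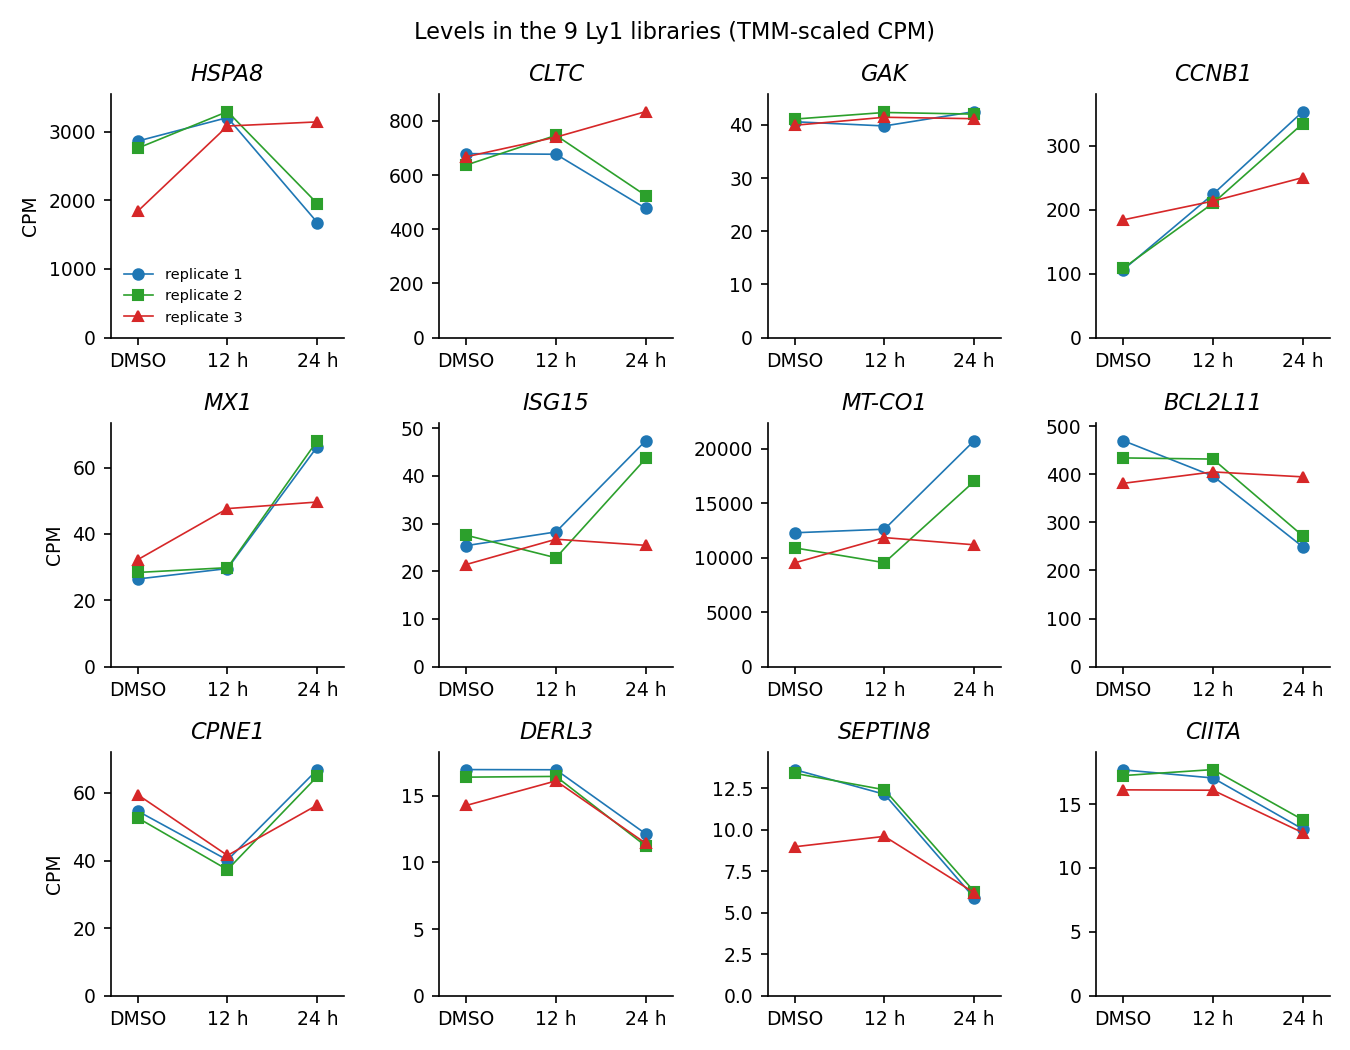
TMM-scaled CPM (vertical axes, from 0) of 12 genes in the DMSO, 12 h and 24 h libraries of Ly1, with a line per replicate number. CPNE1, DERL3, SEPTIN8 and CIITA part 24 h from 12 h in each replicate, whereas HSPA8, CLTC, MX1, ISG15, MT-CO1 and BCL2L11 part them by more in replicates 1 and 2 than in replicate 3.

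GAK itself differed by less than the spread between replicates. It is on chromosome 4 (hg38, 849276 to 932373) and was measured at 39.8, 42.3 and 41.4 CPM at 12 h and at 42.5, 42.0 and 41.2 at 24 h, with a log2 fold change of 0.024 ± 0.08 (adjusted p 0.908). The groups overlapped. A protein-level block of the kinase need not show in its mRNA, so the level is no check of the treatment. Of its relatives in the kinase family, AAK1, which phosphorylates the clathrin adaptor AP2, was at 22.0, 26.0 and 20.8 CPM and then 16.8, 17.2 and 21.5. It fell without replicate 3 (-0.50 ± 0.09, adjusted p 9.68e-05), and replicate 3 was level. COQ8A, a mitochondrial kinase of coenzyme Q synthesis that is a reported off-target of the compound, was at 46.8, 47.7 and 45.6 CPM and then 40.7, 43.9 and 42.6, with -0.14 ± 0.08 (adjusted p 0.514).

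HSPA8, CLTC and the auxilin gene DNAJC6, which act with GAK or like it at the clathrin coat, were lower at 24 h in replicates 1 and 2. HSPA8, on chromosome 11 (123057489 to 123063230), was at 3203, 3290 and 3080 CPM at 12 h and at 1675, 1951 and 3140 at 24 h. The 24 h libraries of replicates 1 and 2 were lower than all others of the 6, and replicate 3 was level. CLTC, the clathrin heavy chain, was at 677, 747 and 740 CPM and then at 477, 524 and 834, with replicate 3 on the other side of its 12 h level. DNAJC6, which encodes auxilin, was at 5.58, 6.25 and 6.71 CPM and then 3.51, 3.97 and 7.02. Without replicate 3 all of these fell, HSPA8 by 0.84 (SE 0.06, adjusted p 8.34e-11), CLTC by 0.51 (SE 0.06, adjusted p 1.2e-07) and DNAJC6 by 0.66 (SE 0.16, adjusted p 0.00179). Over all 3 replicates they stood at -0.50 ± 0.23, -0.24 ± 0.18 and -0.35 ± 0.24, and none passed (adjusted p 0.482, 0.582 and 0.563). In DMSO, HSPA8 was at 2860, 2757 and 1839 CPM, with replicate 3 again apart.

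Of 45 measured genes of clathrin coats and endocytosis, 17 were above 0 in the fit over all 3 replicates and 28 below. Their median log2 fold change was -0.048, against 0.0083 over all 14005 genes. In 4 of them all 24 h libraries were higher than all 12 h libraries and in 5 all were lower, close to the shares over all genes (8.66% and 8.05%). INPP5D, the SHIP1 phosphatase that turns off phosphoinositide signals, was lower in each replicate, at 200, 212 and 199 CPM and then 152, 157 and 178 (-0.33 ± 0.09, adjusted p 0.482). EPS15L1, an adaptor of coated pits, was higher in each, at 71.5, 72.9 and 75.5 and then 91.8, 94.1 and 80.2 (0.28 ± 0.10, adjusted p 0.482). Without replicate 3, 5 of the 45 rose and 18 fell (51.1% called), so more fell than rose. Of all genes 19.9% rose and 21.7% fell in that fit (41.7% called).

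Genes of G2 and mitosis stood higher at 24 h than at 12 h, and here replicate 3 leaned the same way. Of 77 measured, 62 were above 0 in the fit over all 3 replicates, where 51.3% of all genes were. The median was 0.17, and by replicate it was 0.20, 0.21 and 0.09, against 0.0051, 0.014 and 0.0052 over all genes. In replicate 3, 64 of the 77 were above 0 (51.0% of all genes). All 24 h libraries were above all 12 h libraries in 29 of the 77 and below them in 1, against 8.66% and 8.05% of all genes. None of the 77 passed the test over all replicates, and without replicate 3, 41 rose and 9 fell, against 19.9% and 21.7%. The median was 0.19 with the offset for transcript length and 0.13 with no scaling beyond library size. In bulk RNA, more cells in mitosis and more RNA of these genes per cell cannot be told apart.

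CCNB1, which encodes cyclin B1, the partner that drives CDK1 into mitosis, was at 224, 210 and 214 CPM at 12 h and at 353, 335 and 250 at 24 h. All 24 h libraries were higher, replicate 3 the least so. Its log2 fold change was 0.53 ± 0.20 (adjusted p 0.482), and 0.66 ± 0.06 without replicate 3 (adjusted p 1.36e-09). CENPA, the histone variant of the centromere, was at 34.9, 30.9 and 33.6 CPM and then 44.9, 45.5 and 38.0, again without overlap. AURKA, the centrosome kinase, changed by 0.54, 0.59 and 0.18 by replicate, and CDC20, which switches on the anaphase-promoting complex, by 0.22, 0.24 and 0.16.

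The smallest p values of the list belonged to genes that were level in replicate 3. CKS2, a small subunit of the cyclin-dependent kinases, was at 110, 99.4 and 99.9 CPM and then 175, 169 and 105. UBE2S, the ubiquitin enzyme of the anaphase-promoting complex, was at 208, 189 and 206 CPM and then 335, 311 and 206. PTTG1, the securin that holds sister chromatids, changed by 0.76, 0.67 and 0.03 by replicate, and KIF20A, a kinesin of cytokinesis, by 0.77, 0.61 and 0.04. PLK1, the polo-like kinase of mitosis, barely moved in any, at 215, 200 and 212 CPM and then 215, 225 and 227 (0.09 ± 0.16, adjusted p 0.829). Against DMSO the median of the 77 was 0.48 at 12 h and 0.65 at 24 h. These differences share libraries with the one between the times, and the DMSO library of replicate 3 was itself high (CCNB1 at 106, 109 and 184 CPM in replicates 1, 2 and 3).

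Promoters of mitotic genes are known for the CHR element and the CCAAT box. TTTGAA, the letters searched for the CHR on both strands, stood within 250 bases upstream of a RefSeq start in 32 of the 65 members with a promoter in the table (49.2%, against 11.6% of 9607 tested genes). Members with it had a median change of 0.13 and those without it 0.20. CCAAT, likewise searched on both strands, was held by 49 of the 65 (75.4%, against 41.9%), and the medians were 0.17 with it and 0.19 without.

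**Figure D4:**
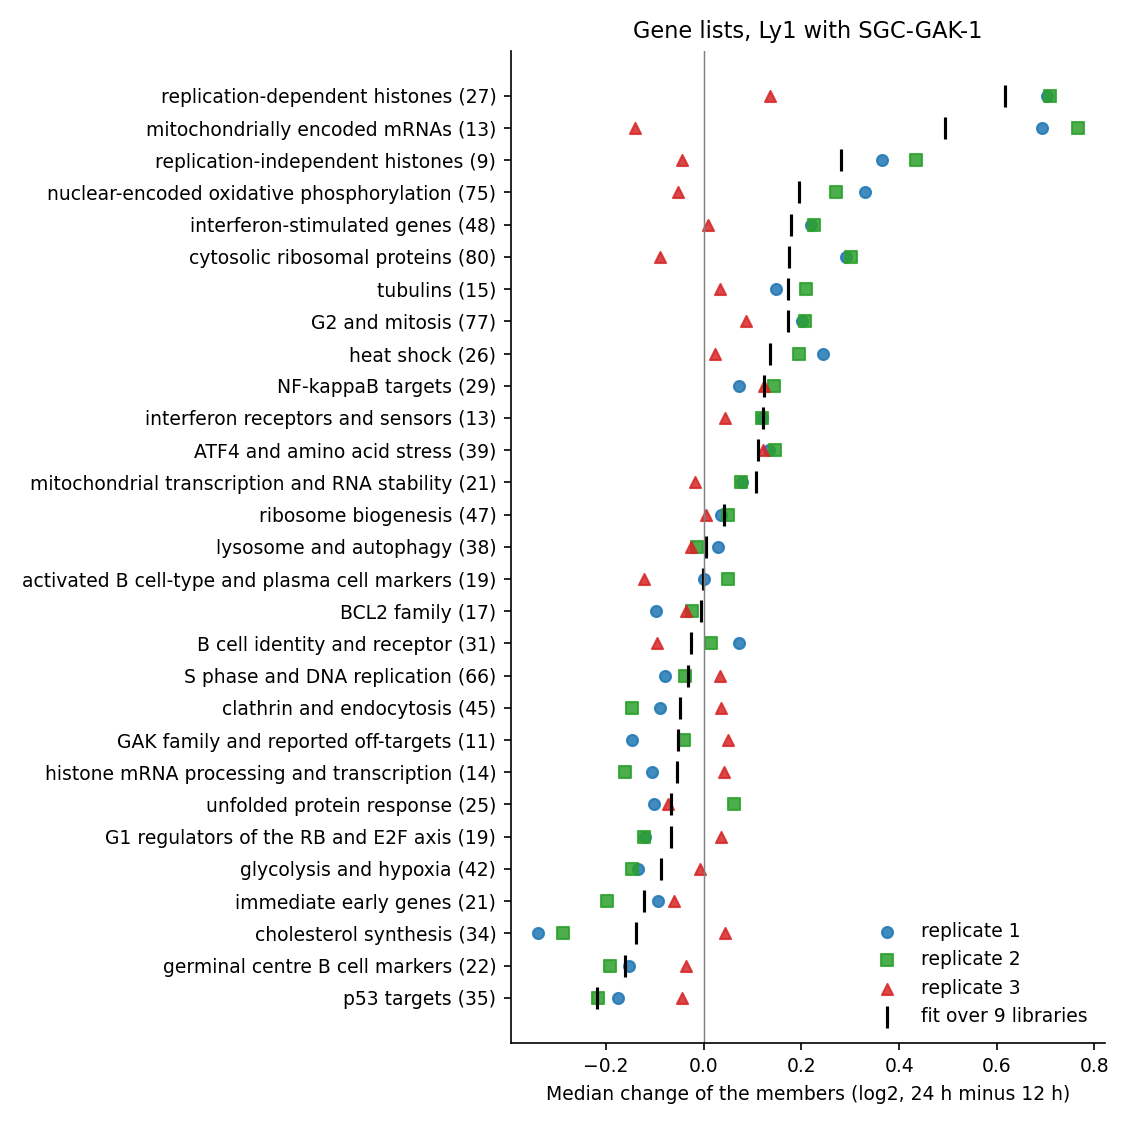
Median change from 12 h to 24 h of the measured members of the gene lists with at least 9 of them (log2, horizontal axis; number of members in brackets), by replicate number and in the fit over 9 libraries. Replication-dependent histones (0.70, 0.71 and 0.13) and mitochondrial mRNAs (0.69, 0.77 and -0.14) lie farthest right of these lists in replicates 1 and 2; G2 and mitosis lies right of 0 in all 3.

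Interferon-stimulated genes were higher at 24 h in replicates 1 and 2. These genes are switched on by interferon signalling through the interferon-stimulated response element in their promoters, and several encode antiviral proteins. MX1, an antiviral GTPase, was at 29.6, 29.8 and 47.7 CPM at 12 h and at 66.3, 68.2 and 49.6 at 24 h. The 24 h libraries were all higher, but in replicate 3 the 12 h library was already high and the change was 0.06. ISG15, a ubiquitin-like protein, was at 28.3, 22.8 and 26.7 CPM and then 47.4, 43.7 and 25.4. IFI27, a mitochondrial interferon-induced protein, was low throughout, at 0.511, 0.401 and 1.83 CPM and then 2.61, 3.02 and 1.60. In ISG15 and IFI27 the groups overlapped. The log2 fold changes were 0.78 ± 0.19, 0.58 ± 0.20 and 1.38 ± 0.48 (adjusted p 0.482 each), and 1.18 ± 0.07, 0.83 ± 0.09 and 2.62 ± 0.33 without replicate 3 (adjusted p 2.47e-12, 3.46e-08 and 6.12e-07).

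The response element can be read in the promoters of these genes. Stretches of the upstream part of their RefSeq windows (build GRCh38.p14, plus strand) are shown because they hold the core of that element, GAAA, any 2 bases and GAAA again, in capitals, on this strand or on the other (TTTC, any 2 bases, TTTC).
ISG15, chr1:1013350-1013427: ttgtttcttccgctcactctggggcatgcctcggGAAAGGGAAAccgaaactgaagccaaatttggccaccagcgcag
IFI27, chr14:94110594-94110671: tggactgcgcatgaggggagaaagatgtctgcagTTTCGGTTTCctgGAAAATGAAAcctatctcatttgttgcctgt
MX1, chr21:41431820-41431897: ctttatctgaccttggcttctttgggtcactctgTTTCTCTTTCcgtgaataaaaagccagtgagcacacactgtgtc
In ISG15 the first base in capitals lies 113 bases before the start of the gene, in IFI27 108 and in MX1 196. The closing GAAA of the ISG15 capitals also opens an overlapping match, GAAAccgaaa, whose later bases were left in lower case. The stretch of MX1 is from 1 of its several RefSeq starts, and the window of its first start held no match. Within 250 bases upstream of any RefSeq start, 21 of the 38 listed interferon genes with a promoter in the table held the core (55.3%), against 3.42% of the 9607 tested genes with a promoter. Members with the core had a median change of 0.29 and those without it 0.09. By replicate the 21 with the core had 0.31, 0.35 and 0.06, and the 17 without had 0.23, 0.23 and 0.0044.

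Of 48 measured interferon-stimulated genes, 36 were above 0, and the median was 0.18 (0.22, 0.23 and 0.0079 by replicate). Over the 29 that averaged at least 5 CPM the median was 0.099. None of the 48 passed over all replicates. Without replicate 3, 20 of 47 rose and 7 fell (57.4% called, against 41.7% of all genes, of which 19.9% rose and 21.7% fell). Not all members went up. TRIM22, an antiviral ubiquitin ligase that is also a p53 target, was at 90.3, 101 and 97.9 CPM and then 53.6, 56.3 and 78.4, lower in each replicate (-0.62 ± 0.15, adjusted p 0.482). IRF7, the factor that amplifies interferon production, changed by 0.94, 0.75 and -0.15.

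Replication-dependent histone mRNAs, which end in a stem-loop and lack a poly(A) tail, had the largest median of the lists with at least 5 measured members. They took few counts in these mRNA libraries. Of 62 listed, 27 were measured. The genes of this class, also those under the filter on low counts, took between 0.0211% and 0.0358% of all counts in the 6 libraries. Near-identical copies can share reads. The median log2 fold change of the 27 was 0.62 (0.70, 0.71 and 0.13 by replicate), and 25 of 27 were above 0. Just 1 of the 27 averaged at least 5 CPM, and it was at 0.24, so with that filter the mitochondrial mRNAs had the largest median (0.51). Without overlap, 9 were higher (8.66% of all genes) and 0 lower. None passed over all replicates. Without replicate 3, 12 rose (44.4%) and 0 fell, against 19.9% and 21.7% of all genes. H2AC6, an H2A gene, was at 2.05, 1.40 and 1.18 CPM and then 4.68, 5.00 and 2.07. H2BC5 was at 1.88, 2.08 and 1.83 CPM and then 5.04, 4.29 and 2.19, and H2AC11 at 1.19, 1.68 and 1.56 and then 3.24, 3.10 and 2.22. In all of these the 24 h libraries were higher than the 12 h libraries, with replicate 3 between. Their DMSO levels overlapped the 12 h range in H2AC11 and reached 3.85 CPM in H2AC6.

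The octamer, which binds OCT1, is known above all from promoters of H2B histone genes. A pair of stretches, both from H2A genes, is shown as they hold ATGCAAAT in capitals (GRCh38.p14, RefSeq, plus strand). ATTTGCAT on the other strand was searched too.
H2AC6, chr6:26124008-26124083: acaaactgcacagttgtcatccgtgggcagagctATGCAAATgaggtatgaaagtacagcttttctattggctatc
H2AC11, chr6:27132801-27132876: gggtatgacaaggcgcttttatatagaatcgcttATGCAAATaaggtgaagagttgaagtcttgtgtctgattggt
For H2AC6 the bases after this start were not found near the beginning of an annotated transcript of the gene, as they were for H2AC11. H2BC5 held no match. The octamer was in the upstream window of 13 of the 25 measured histone genes with a promoter in the table (52.0%) and of 1.95% of all 9607. Histone genes with it had a median change of 0.89 and those without 0.57. Of the 4 motif searches, genes holding the motif had the larger median change for the octamer and the interferon element, and the smaller for both motifs of the mitotic genes.

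RNAs without a poly(A) tail outside the histones stood higher in replicates 1 and 2. Of 26 listed, 4 were measured, and all 4 were above 0 in the fit, with medians of 0.78, 1.24 and -0.38 by replicate. In replicate 3, 2 of the 4 were above 0, and without replicate 3, 3 of the 4 rose, against 19.9% of all genes. RN7SL1, the RNA of the signal recognition particle, was at 2.39, 1.96 and 1.91 CPM and then 5.40, 5.24 and 2.54 (1.07 ± 0.32, adjusted p 0.482). Its 24 h libraries were all higher, replicate 3 the least. SLBP, the protein that binds the histone stem-loop, changed by 0.17, 0.17 and -0.17, and NPAT, the activator of histone transcription, by -0.46, -0.55 and 0.04. The 9 measured histones with poly(A) tails had a median of 0.28 (0.37, 0.43 and -0.05 by replicate). Without replicate 3, 8 of them rose and 1 fell, against 19.9% and 21.7% of all genes. All 9 averaged at least 5 CPM, so they can hardly be set beside the stem-loop class at a like level, and the classes were not tested against each other.

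The 13 mitochondrially encoded mRNAs were all above 0 in the fit, but in none did the groups separate. Their median was 0.49, from 0.69 in replicate 1, 0.77 in replicate 2 and -0.14 in replicate 3, where 1 of the 13 was above 0, and it was 0.25 without the 24 h library of replicate 1. MT-CO1, the core subunit of cytochrome c oxidase, was at 12630, 9554 and 11859 CPM and then 20772, 17034 and 11196. MT-ATP8, an ATP synthase subunit, was at 295, 267 and 274 CPM and then 562, 470 and 287. Replicates 1 and 2 at 24 h were the high libraries in both. Over all replicates the changes were 0.53 ± 0.21 and 0.66 ± 0.19 (adjusted p 0.482 each). Without replicate 3 they were 0.77 ± 0.19 and 0.88 ± 0.08 (adjusted p 0.0407 and 1.06e-06). In that fit 11 of the 13 rose, against 19.9% of all genes.

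Nuclear genes of oxidative phosphorylation followed at a smaller size. Of 75 measured, 66 were above 0, with a median of 0.20 (0.33, 0.27 and -0.05 by replicate), and without replicate 3, 51 rose and 4 fell (19.9% and 21.7% of all genes). ATP5MF, an ATP synthase subunit, was at 33.3, 33.0 and 31.8 CPM and then 57.7, 54.5 and 32.5. Among 80 cytosolic ribosomal proteins, 72 were above 0, with a median of 0.17 (0.29, 0.30 and -0.09), and in none did the groups separate. Without replicate 3, 65 of the 80 rose and 3 fell. Both lists hold short transcripts (median 703 and 682 nt), and with the offset for transcript length their medians were 0.13 and 0.075. LRPPRC, which stabilises mitochondrial mRNAs, changed the other way by -0.39 and -0.49 in replicates 1 and 2 and by 0.03 in replicate 3.

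Targets of p53 stood lower. Of 35 measured, 26 were below 0 (48.7% of all genes), with a median of -0.22 (-0.18, -0.22 and -0.04 by replicate). All 24 h libraries were below all 12 h libraries in 11 of them and above in 1, against 8.05% and 8.66% of all genes. MDM2, the ubiquitin ligase that holds p53 down, was at 349, 386 and 301 CPM and then 215, 240 and 302. CDKN1A, the p21 inhibitor of cyclin-dependent kinases, was at 25.9, 28.5 and 20.8 CPM and then 13.2, 17.4 and 22.8. In both, replicates 1 and 2 were lower and replicate 3 was level or above, so the groups overlapped (-0.45 ± 0.16 and -0.49 ± 0.19, adjusted p 0.482 each). SESN1, a stress sensor, was lower in each replicate (-0.41, -0.37 and -0.20). Without replicate 3, 19 of the 35 fell and 1 rose, against 21.7% and 19.9% of all genes.

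The BCL2 family had no common direction. Of 17 measured, 8 were above 0 and 9 below, with a median of -0.0062, and without replicate 3, 2 rose and 4 fell (35.3% called, below the 41.7% of all genes). The members named here were lower. BCL2L11, which encodes the BH3-only death protein BIM, was at 396, 432 and 405 CPM and then 249, 272 and 395. BCL2, the survival protein that BIM binds, was at 779, 851 and 852 CPM and then 580, 615 and 814. Replicates 1 and 2 were the low libraries at 24 h in both (adjusted p 0.482; without replicate 3, 2.47e-09 and 2.53e-07). BMF, another BH3-only gene, was lower in all 3, at 123, 129 and 120 CPM and then 100.1, 101.6 and 102.4 (-0.29 ± 0.10, adjusted p 0.482). MYC, the growth transcription factor, was at 409, 425 and 390 CPM and then 283, 283 and 417. It fell by 0.56 without replicate 3 (SE 0.05, adjusted p 8.97e-09) and changed by 0.09 in replicate 3.

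Genes of S phase were split. Of 66 measured, 29 were above 0 and 37 below, with a median of -0.03. CDC45, a subunit of the replicative helicase, was higher in each replicate, at 62.8, 62.8 and 62.4 CPM and then 76.0, 70.2 and 72.1 (0.22 ± 0.09, adjusted p 0.482). ORC6, of the origin recognition complex, was at 47.7, 44.3 and 46.9 CPM and then 72.5, 67.4 and 49.5. MCM4 of the same helicase went the other way in replicates 1 and 2, by -0.48 and -0.42, and by -0.01 in replicate 3. Without replicate 3, 10 of the 66 rose and 22 fell (48.5% called), so more fell than rose. Of all genes 19.9% rose and 21.7% fell in that fit (41.7% called).

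In the ATF4 genes of amino acid stress the medians were of like size in the 3 replicates, at 0.13, 0.15 and 0.12. Of 39 measured, 29 were above 0, and all 24 h libraries were above all 12 h libraries in 11, against 8.66% of all genes. The 29 measured targets of NF-kappaB, the transcription factor of inflammatory signalling, also had a median in replicate 3 (0.12) like those in replicates 1 and 2 (0.073 and 0.14). Their median moved with single libraries of replicate 3. It was 0.12 in the fit, -0.0071 without the 24 h library of that number and 0.20 without its 12 h library. With replicate 3 left out altogether the median was 0.18. In 6 of the 29 the groups did not overlap and 24 h was higher, and in 3 it was lower. ATF4, the factor itself, was at 277, 274 and 427 CPM and then 518, 494 and 494. CHAC1, its target that degrades glutathione, was at 0.980, 0.761 and 3.20 CPM and then 3.64, 3.45 and 3.59. In both, replicate 3 was high already at 12 h and the 24 h levels were alike. CARS1 and YARS1, which charge tRNAs with cysteine and tyrosine, changed by 0.42, 0.61 and 0.25 and by 0.39, 0.46 and 0.25, the least in replicate 3. None of the 39 passed over all replicates, whereas 20 rose and 7 fell without replicate 3, against 19.9% and 21.7% of all genes.

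Cholesterol genes stood lower in replicates 1 and 2, with medians of -0.34, -0.29 and 0.04 by replicate. ACAT2, which makes acetoacetyl-CoA, was lower in all 3 replicates, at 161, 152 and 160 CPM and then 126, 124 and 134. Of 34 measured, 4 rose and 26 fell without replicate 3, against 19.9% and 21.7% of all genes.

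Genes of B cell identity went both ways. The 31 measured had a median of -0.03, without replicate 3 10 rose and 5 fell (48.4%, against 41.7% of all genes), and the summed list stood between 10450 and 10860 CPM at 12 h and between 10410 and 10470 at 24 h. CIITA, the activator of MHC class II genes, was lower in each replicate by a like amount, at 17.1, 17.7 and 16.1 CPM and then 13.04, 13.77 and 12.76 (-0.36 ± 0.10, adjusted p 0.482). PAX5, the B cell lineage factor, was at 505, 561 and 522 CPM and then 433, 425 and 457, also without overlap (-0.27 ± 0.09, adjusted p 0.482). CIITA and PAX5 fell without replicate 3 (adjusted p 0.00295 and 3.99e-05). Among 22 germinal centre markers 16 were below 0, with a median of -0.16 (-0.15, -0.19 and -0.04 by replicate), which was -0.075 without the 24 h library of replicate 1. In 5 of them the groups did not overlap and 24 h was lower (8.05% of all genes). Without replicate 3, 2 of 21 rose and 9 fell, against 19.9% and 21.7% of all genes. BACH2, a repressor of plasma cell fate, was at 581, 646 and 583 CPM and then 460, 477 and 554. MZB1, a chaperone of antibody secretion, was higher in each replicate, at 65.9, 68.3 and 78.5 CPM and then 106, 101 and 88.7 (0.48 ± 0.12, adjusted p 0.482).

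The same interval was set against U2932, to ask whether the lines differed. In U2932 edgeR called 0 of 15138 genes (0%) between 24 h and 12 h, with 1274 at a p under 0.05 before adjustment. The test of the difference between lines called 0 of 16191 genes (0%), and DESeq2 called 3. Before adjustment 832 genes had a p under 0.05, and the lowest adjusted p was 0.277. The count was 540 without the 24 h library of Ly1 replicate 3 and 3777 without replicate 3 of either line, so it too turned on that number. For the mitochondrial mRNAs the median in U2932 was -0.29 against 0.49 in Ly1, for the histones 0.04 against 0.62, and for G2 and mitosis 0.19 against 0.17. No member of these lists passed the test of the difference. MX1 stood at -0.31 in U2932 and at 0.78 in Ly1 (difference 1.10 ± 0.85, adjusted p 0.911).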

How the data were processed

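mRNA libraries (Nugen Universal Plus mRNA-Seq, sequenced over 2 runs that were merged, per the labels' protocols) were analysed from the deposited table of raw counts per gene. The submitters' processing notes name cutadapt, STAR, Picard and hg38; the sources used here give neither versions nor the strand setting. All 9 Ly1 libraries were fitted as 3 groups with edgeR 4.0.16 (R 4.3.3; TMM scaling, filterByExpr with its minimum count of 10, robust quasi-likelihood F test, Benjamini-Hochberg adjustment, threshold 0.05), and 24 h was contrasted with 12 h. A second fit over 18 libraries tested the difference between lines. The SE is the fold change divided by the root of F. Changes by replicate are differences of log2 CPM with a prior count of 2. Of 60656 genes, 27386 were at 0 in all libraries and 14005 were tested in Ly1. At these depths 3 counts equal 0.102 to 0.133 CPM, which covers counting error only. The scripts were tested on simulated data.

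The labels do not state that libraries of the same replicate number belong together. Deviations from the group means of 12 h and 24 h libraries with the same number correlated at 0.27, 0.10 and 0.33 over 14005 genes. By this measure each 12 h library matched its own number best. By distance the pairing did not hold. Among 24 h libraries, replicate 3 had the smallest median difference from the 12 h libraries of replicates 1 (0.154) and 2 (0.123). The 24 h library of replicate 2 lay nearer to the 12 h library of replicate 1 (0.178) than to its own number (0.221). Changes by replicate number are therefore a description.

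Named genes were protein-coding genes with an unadjusted p under 0.05, at least 5 CPM in the higher group and no overlap between groups (the 10 largest changes and 5 smallest p values per direction), plus set genes and the 4 smallest p values of each list; some of these are not printed. The members, the 34 gene lists and the tests were chosen with earlier results of these data known, so no list has a test. Promoters (RefSeq, GRCh38.p14) were searched on both strands in the 250 bases upstream of every start. Transcript lengths (GENCODE annotation) were found for 13882 of 14005 genes. DESeq2 1.42.0, limma 3.58.1, other scalings and filters, the replicate block and leaving out libraries were alternatives.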

Additional observations from a re-analysis of the deposited data

How the results depend on the processing

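Between 24 h and 12 h, DESeq2 called 5 genes, no filter on low counts 211 (all of them among the genes kept by the filter), and the offset for transcript length without replicate 3, added after seeing the data, 5243. Among the 211 were NLRP7, MX1, MT-ATP8, CCNB1 and HSPA8 (edgeR adjusted p 1.68e-10, 1.15e-05, 0.000266, 0.0085 and 0.0102), whereas other named genes such as CLTC and CENPA were not. Statements above that no gene or list member passed over all replicates refer to the main fit. Leaving out single libraries or replicate numbers gave 0 to 5841 calls. Above 0 were only the fits without the 24 h library of replicate 3 (2780) and without replicate 3 (5841). Without the DMSO library of replicate 3, 2161 genes had an unadjusted p under 0.05, against 1446 in the main fit. With the replicate block the count was 0, with 2084 genes at an unadjusted p under 0.05, and the block changed no other call. Limma voom, DESeq2 size factors, library size only, a minimum of 5 CPM, the 6 libraries alone and the length offset over all replicates gave 0. For the difference between lines, DESeq2 called 3 genes, no filter 32 and the 12 treated libraries alone 1, the replicate block 0, and leave-outs 0 to 3777. The causes were not tested.
Of the genes given with changes and recomputed under these alternatives, GAK and PLK1 changed sign. GAK stood at -0.012 with library size only, -0.032 with the length offset and -0.064 with it and without replicate 3, where PLK1 was at -0.016. With libraries left out, GAK ranged from -0.008775 to 0.044.
Depth limits mainly the histone genes, most of them at a few CPM.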
